A study of Mus musculus with 2 samples.

Results

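Long intergenic non-coding RNA (lincRNA) genes are transcription units, mostly between protein-coding genes, whose RNA is usually spliced and polyadenylated and has no long reading frame. The genes described here are all those with the gene type lincRNA on chromosomes 1 to 19 in GENCODE M21, the annotation of the mm10 assembly. They number 5209 of 51229 annotated genes on these chromosomes, and of 5854 lincRNA genes on all chromosomes. For each gene, peaks were counted within 1 kb of the start (the 5′ end of the gene), in exons and in introns, and the counts were set against those of coding genes of the same length. Membership came from the annotation alone and used no measured value. The members and the gene lists below were still chosen with earlier results of these data known. By these gene models 484 of the 5209 (9.29%) overlapped a coding gene and 333 had a single exon.

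The peaks mark H1t, a linker histone made in the male germ line. Linker histones bind the DNA where it enters and leaves the nucleosome and compact chromatin, and H1t appears in meiotic spermatocytes. Testis is known for transcribing more lincRNA genes than most tissues, many of them in meiotic and post-meiotic cells. The chromatin came from spermatogenic cells of the testes of ICR mice, an outbred stock, aged 6 weeks. It was cut with an enzyme and precipitated with a rabbit polyclonal antibody against H1t made in the submitters' laboratory. The series has 2 libraries, this precipitate and an input taken without antibody from the same kind of cells; no genotype or treatment differs between them, and the input was not analysed here. The peak list covers a mixed population of germ cell stages, how many animals were pooled is not given in the sources used here, and marker genes of the cell type cannot be read from a peak list. A single library without a replicate was available, so the differences below have no test. RNA was not measured and read depth is not known.

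Of 76546 peaks in the list, 72438 lay on chromosomes 1 to 19, at 30.1 per Mb. Each peak carries a score from the authors' peak caller, from 50 to 3100 with a median of 73.82 on these chromosomes, which is used below only to rank peaks within the list. A peak is counted where its midpoint falls. Start windows, exons and introns of the lincRNA genes together held 3075 distinct peaks.

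Promoter sequences show the range of lincRNA starts. They cover 250 bases before to 50 after the RefSeq start on GRCm38.p6, which can differ from the GENCODE start used for the counts, and are printed 5′ to 3′, with each CG dinucleotide in capitals, since the GC content of the start went with the presence of a peak. The first 4 are the lincRNA genes with the highest peak score at the start among those with an entry within 1 kb of the annotated start: Gm4675 (chr14:118235982-118236281, plus strand), Snhg18 (chr15:32244613-32244912, minus), Gm35240 (chr12:77553461-77553760, plus) and 2900079G21Rik (chr9:112234027-112234326, plus).

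Gm4675: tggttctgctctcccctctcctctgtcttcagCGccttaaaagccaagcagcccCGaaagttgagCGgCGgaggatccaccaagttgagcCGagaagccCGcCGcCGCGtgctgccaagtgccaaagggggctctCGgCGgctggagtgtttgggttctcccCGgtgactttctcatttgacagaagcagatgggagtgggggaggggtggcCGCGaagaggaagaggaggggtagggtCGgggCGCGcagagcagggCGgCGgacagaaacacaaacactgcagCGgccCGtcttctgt
Snhg18: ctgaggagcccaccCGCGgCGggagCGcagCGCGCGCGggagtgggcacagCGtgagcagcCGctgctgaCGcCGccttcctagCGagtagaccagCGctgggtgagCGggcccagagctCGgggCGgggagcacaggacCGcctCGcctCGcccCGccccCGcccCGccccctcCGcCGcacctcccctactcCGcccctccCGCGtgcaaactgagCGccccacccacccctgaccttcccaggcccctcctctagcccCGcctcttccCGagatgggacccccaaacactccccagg
Gm35240: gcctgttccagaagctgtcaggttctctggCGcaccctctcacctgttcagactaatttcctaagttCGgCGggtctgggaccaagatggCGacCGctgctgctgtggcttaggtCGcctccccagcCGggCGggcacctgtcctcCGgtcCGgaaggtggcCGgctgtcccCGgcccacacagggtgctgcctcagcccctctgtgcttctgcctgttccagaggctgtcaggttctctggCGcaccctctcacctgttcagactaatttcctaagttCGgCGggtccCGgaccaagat
2900079G21Rik: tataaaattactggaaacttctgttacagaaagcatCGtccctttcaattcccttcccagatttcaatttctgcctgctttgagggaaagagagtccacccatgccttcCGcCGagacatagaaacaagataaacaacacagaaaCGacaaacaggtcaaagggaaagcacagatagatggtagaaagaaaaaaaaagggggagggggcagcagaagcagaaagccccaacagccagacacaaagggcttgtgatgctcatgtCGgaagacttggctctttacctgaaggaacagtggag

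The other 4 are well-known lincRNA genes with no peak in the gene or within 10 kb: the snoRNA host genes Snhg10 (chr12:105032230-105032529, minus) and Snhg20 (chr11:117076533-117076832, plus), Lncenc1, a transcript of embryonic stem cells (chr13:97434720-97435019, plus), and Halr1, a transcript beside the Hoxa cluster (chr6:52102699-52102998, plus).

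Snhg10: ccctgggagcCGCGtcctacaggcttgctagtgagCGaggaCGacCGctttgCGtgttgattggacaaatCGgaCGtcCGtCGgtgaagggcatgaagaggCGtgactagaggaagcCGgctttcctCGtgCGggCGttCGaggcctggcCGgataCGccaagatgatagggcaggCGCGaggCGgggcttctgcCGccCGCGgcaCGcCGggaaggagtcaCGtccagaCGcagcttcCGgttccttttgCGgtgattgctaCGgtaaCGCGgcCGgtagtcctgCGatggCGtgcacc
Snhg20: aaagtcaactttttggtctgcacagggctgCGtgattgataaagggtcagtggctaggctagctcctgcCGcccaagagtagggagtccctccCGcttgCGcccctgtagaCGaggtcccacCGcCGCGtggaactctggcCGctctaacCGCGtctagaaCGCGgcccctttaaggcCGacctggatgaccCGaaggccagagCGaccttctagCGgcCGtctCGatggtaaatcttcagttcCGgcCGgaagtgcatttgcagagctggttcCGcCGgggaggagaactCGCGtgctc
Lncenc1: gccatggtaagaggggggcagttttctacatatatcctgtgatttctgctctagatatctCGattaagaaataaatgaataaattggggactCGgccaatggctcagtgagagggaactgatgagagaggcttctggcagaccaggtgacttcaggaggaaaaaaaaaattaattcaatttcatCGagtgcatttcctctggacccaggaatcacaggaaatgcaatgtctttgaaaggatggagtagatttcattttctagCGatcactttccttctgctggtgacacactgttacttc
Halr1: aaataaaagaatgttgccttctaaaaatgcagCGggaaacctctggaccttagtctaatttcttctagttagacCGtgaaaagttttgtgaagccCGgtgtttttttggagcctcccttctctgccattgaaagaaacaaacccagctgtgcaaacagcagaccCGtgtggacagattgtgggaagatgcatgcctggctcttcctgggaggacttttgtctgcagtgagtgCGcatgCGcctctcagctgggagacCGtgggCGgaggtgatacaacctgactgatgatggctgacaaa

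The peaks at Gm4675, Snhg18 and Gm35240 covered all 300 bases, and these promoters held 21, 31 and 16 CG dinucleotides at a GC content of 63.0%, 75.3% and 62.7%. The RefSeq start of Gm35240 lies 364 bp downstream of its GENCODE start and that of Snhg20 775 bp. Both stretches are therefore wholly inside their GENCODE genes. The other 6 starts are the same in both annotations. The peak of 2900079G21Rik lay outside the printed stretch, which held 5. A high CG count did not go with a peak in every case. Snhg10 held 36 and Snhg20 held 25 CG dinucleotides without a peak within 10 kb, while Lncenc1 held 4 and Halr1 held 8.

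H1t peaks were less frequent at lincRNA starts than at coding starts. A peak midpoint lay within 1 kb of the start in 338 of 5209 lincRNA genes, 6.49% (95% Wilson interval 5.85 to 7.19). These intervals treat genes as independent and cover counting over genes only, not the spread between animals. Among the 20713 coding genes within the same range of lengths the share was 24.1%. To match lengths, lincRNA genes were put in 20 length classes of similar size, and the coding share of each class was weighted by the lincRNA genes in it. This gave 21.9%, and a ratio of lincRNA to coding genes of 0.297. The ratio was below 1 on all 19 chromosomes, each computed with 5 length classes, from 0.110 on chromosome 10 to 0.525 on chromosome 17 with a median of 0.265. The lincRNA share ran from 2.82% to 10.8% over the chromosomes and the coding share from 15.0% to 29.7%, so the ranges did not overlap.

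Exons differed more. A peak midpoint lay in an exon of 186 lincRNA genes, 3.57% (3.10 to 4.11), against 28.7% of all coding genes in the length range and 25.8% after weighting by length, a ratio of 0.138. Chromosomes ran from 0.0474 on chromosome 10 to 0.314 on chromosome 14. The lincRNA genes have less exon sequence, with a median of 1010 bp against 3554 bp, so the sequence in which a peak could be counted differs as well. Per Mb of exon, the peak density was 0.830 times the autosomal one in lincRNA genes and 2.91 times in coding genes. Against coding genes of the same exonic length the ratio was 0.233, and with exon GC content matched as well it was 0.356. It was 0.209 when a peak counted wherever it overlapped an exon by at least 1 bp.

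Intron shares of the 2 gene types were closer over all lengths together, and lower in lincRNA genes at most lengths. An intron peak was found in 994 lincRNA genes, 19.1% (18.04 to 20.17), against 31.9% of all coding genes in the range and 20.2% after weighting by length, a ratio of 0.944. On 17 of 19 chromosomes the ratio was below 1, and it ran from 0.710 on chromosome 10 to 1.21 on chromosome 17. In 5 groups of genes by length the ratio was 0.752, 0.665, 0.616 and 0.865 from the shortest up, and 1.07 in the longest. In the middle group 6.92% of lincRNA genes had an intron peak against 11.2% of coding genes. The direction over all lengths depended on the counting. The ratio was 1.05 once peaks within 1 kb of a start were left out, and 1.17 for peaks above the median score. The ratios by length group include intron peaks within 1 kb of a start, and were not repeated without them. In all, 1281 lincRNA genes (24.6%) had a peak at the start, in an exon or in an intron, and 2712 (52.1%) had none in the gene or within 10 kb. Both a start and an exon peak were counted in 96 genes, and a start, an exon and an intron peak in 18. These need not be separate peaks, since the start window reaches into the gene and 1 peak can count at both places. With start peaks left out, 105 genes kept an exon peak.

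**Figure D1:**
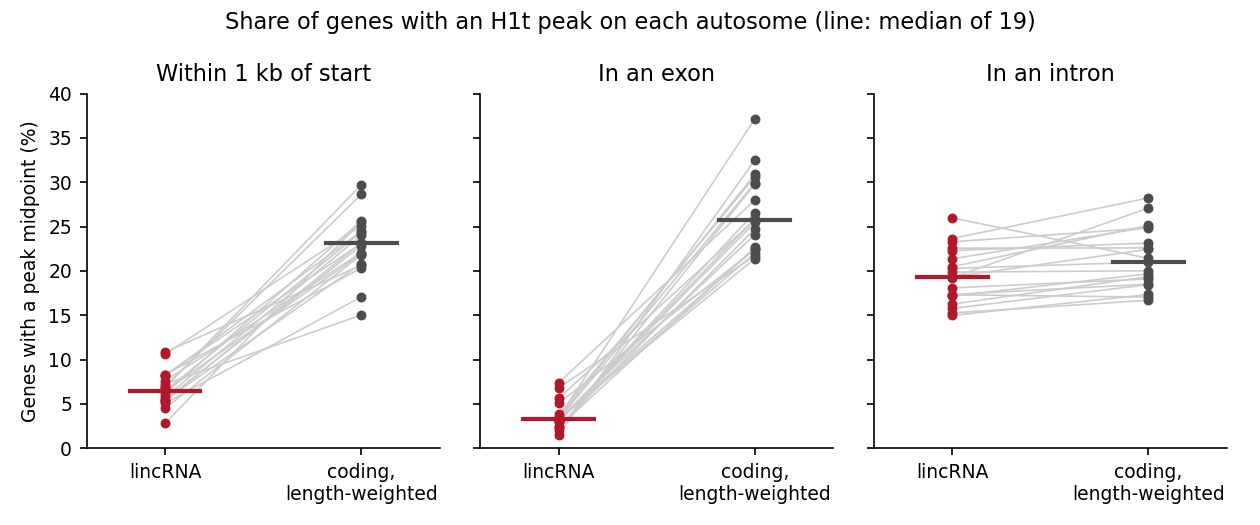
Share of genes with an H1t peak midpoint within 1 kb of the start, in an exon or in an intron, in percent, with 1 point per autosome, grey lines joining the 2 gene types of a chromosome and bars at the median of 19. Start shares of lincRNA genes (2.82% to 10.8%) all lie below those of length-weighted coding genes (15.0% to 29.7%), while intron shares overlap.

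The position of peaks around the start also differed. Coding genes held 3118 midpoints in the first 500 bp downstream, 9.99 times the density of all autosomal sequence, and 864 in the 500 bp upstream (2.77 times). At lincRNA starts the density was 1.29 times the autosomal level in the first 500 bp downstream (101 midpoints) and 1.47 times in the 500 bp upstream (115 midpoints). From 1500 to 4000 bp downstream of lincRNA starts it was between 0.446 and 0.599 times that level. Of 350 pairs of a lincRNA gene and a start peak, 189 (54.0%) lay upstream of the start, against 21.5% for coding genes. The upstream majority came from lincRNA genes with a coding start less than 1 kb away (88 of 124 pairs, 71.0%). Upstream pairs were 11 of 29 (37.9%) at 1 to 5 kb and 90 of 197 (45.7%) at 5 kb or more.

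**Figure D2:**
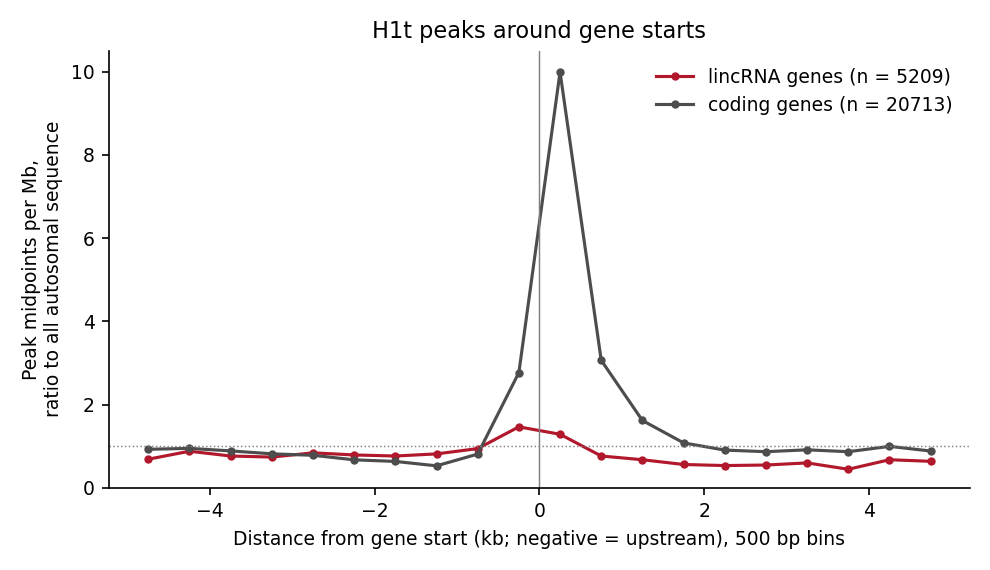
Peak midpoints per Mb in 500 bp bins from 5 kb upstream to 5 kb downstream of gene starts, as a ratio to all autosomal sequence (dotted line at 1). Coding genes rise to 9.99 in the first bin downstream, while lincRNA genes stay at or below 1.47.

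Start peaks of lincRNA genes gathered where a coding gene starts nearby. Of 339 lincRNA genes with a coding start less than 1 kb away, 313 of them with the nearest coding gene on the opposite strand, 117 (34.5%) had a start peak. The coding genes beside them had one in 36.0% of cases. At these starts 119 of 124 gene and peak pairs used a peak that was also within 1 kb of a coding start. The windows of starts less than 1 kb apart overlap, so this sharing follows in large part from the choice of genes. Of the nearest coding genes of lincRNA genes at 5 kb or more, 34.3% had a start peak. From 1 to 5 kb the share of lincRNA genes with a start peak was 10.2% (29 of 283). It was 4.45% (76 of 1707) from 5 to 50 kb, 4.07% (103 of 2531) from 50 to 500 kb and 3.72% (13 of 349) at 500 kb or more. Among the 4587 genes at 5 kb or more, peaks in the start window had 0.712 times the autosomal density. After leaving out genes that overlap a coding gene or start within 5 kb of one, 174 genes kept a start peak (4.05%), a ratio to coding genes of 0.185. Which of 2 neighbouring starts a shared peak belongs to cannot be told from its position.

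**Figure D3:**
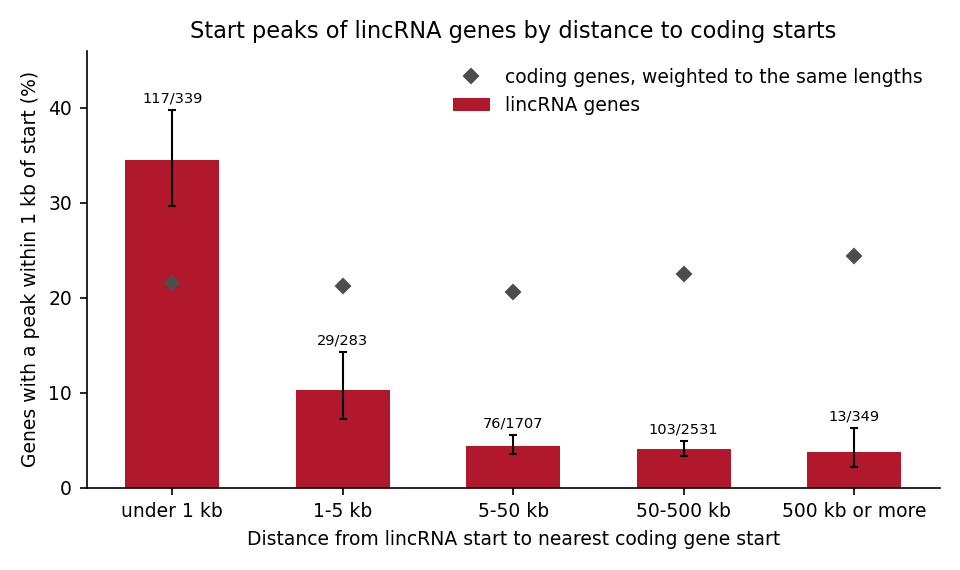
Share of lincRNA genes with a peak within 1 kb of the start, in percent, by distance to the nearest coding start, with 95% Wilson intervals that cover counting over genes only; diamonds show coding genes weighted to the same lengths. The share is 34.5% under 1 kb and 3.72% to 4.45% beyond 5 kb.

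GC content of the first exon went with the start peaks in both gene types. The median GC content of the first exon was 49.4% in lincRNA and 60% in coding genes, and 55.7% in lincRNA genes with a start peak. When both gene types were divided at the same GC values, the lowest class (up to 47.3%) held 36.6% of lincRNA genes and 15.8% of coding genes. A start peak was present in 3.20% of its lincRNA and 4.06% of its coding genes. In the class from 53.6% to 60.5% the shares were 10.6% (102 of 965) and 18.3%. The highest class, from 68.5%, held 89 lincRNA genes, 1.71% of them all, and 37 of these had a start peak (41.6%, 95% Wilson interval 31.9 to 52.0 over genes) against 42.9% of coding genes. With length and first-exon GC content matched together, each in 5 classes, the ratio was 0.562. The class edges came from the lincRNA genes, so coding genes can still be richer in GC within the highest class. The ratio was thus nearer to 1 than with length alone, and still below it.

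The shares rose with GC content both near and far from coding starts. Among lincRNA genes at 5 kb or more from a coding start, 17 of 50 in the highest GC class had a start peak (34.0%), against 48 of 1760 in the lowest (2.73%). Within 5 kb of a coding start the shares were 51.3% (20 of 39) and 8.72% (13 of 149).

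**Figure D4:**
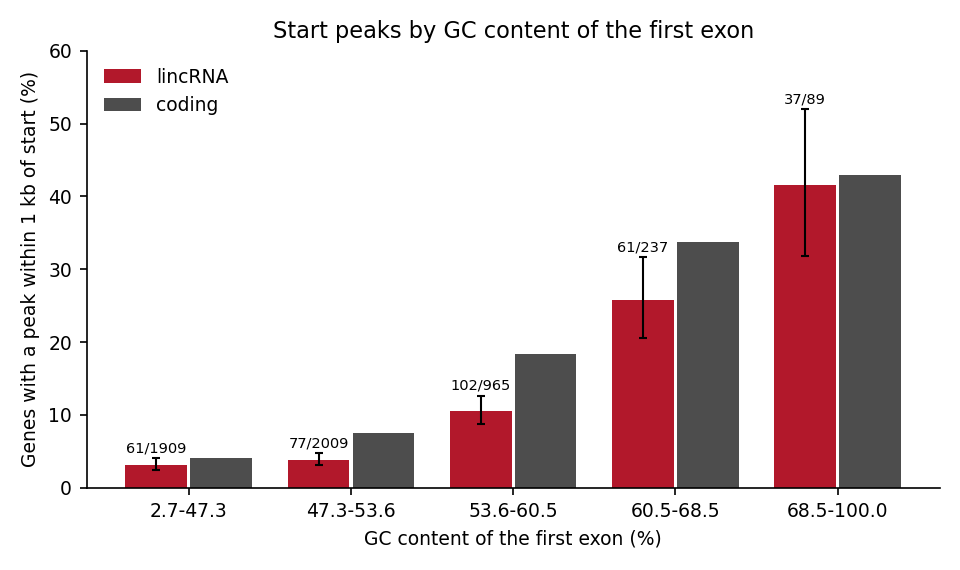
Share of genes with a peak within 1 kb of the start, in percent, in 5 classes of first-exon GC content, for lincRNA genes (with 95% Wilson intervals over genes, and counts) and coding genes. Both rise with GC content, lincRNA genes from 3.20% to 41.6% and coding genes from 4.06% to 42.9%.

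Start peaks were also more frequent at promoters with many CG dinucleotides. Of 5209 lincRNA genes 2020 matched RefSeq promoters by symbol, chromosome and strand, and 1589 had one within 1 kb of the annotated start. Their median was 4 CG dinucleotides in 300 bases, against 16 in coding genes. The 107 with a start peak had a median of 14 and the 1482 without one had 4. A start peak was present in 5 of 296 lincRNA promoters with 0 or 1 CG (1.69%), in 23 of 164 with 10 to 19 (14%) and in 43 of 115 with 20 or more (37.4%). In the same classes 4.70%, 27.8% and 40.1% of coding promoters had one. With 5 to 9 CG the shares were 3.5% (15 of 429) and 16.1%. The lincRNA promoters were thus lower in each CG class, and nearest to coding ones at 20 or more. Within a class the coding promoters can still hold more CG. The GC box GGGCGG, the core of the site bound by Sp1, was searched on both strands. It occurred in 47.7% of lincRNA promoters with a start peak and 13.4% of those without. In coding promoters the shares were 71.1% and 45.7%, and in all 32851 RefSeq promoters 35.7%. The letters of the box are rich in CG themselves, so these shares are not separate from the GC content.

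Within the genes, first exons held the densest peaks. Among the 2992 lincRNA genes with at least 3 separate exon blocks, the first exon held 47.7 peaks per Mb (35 midpoints), inner exons 16.1 (29) and the last exon 13.6 (32). Coding genes held 314.1, 78.8 and 47.9 per Mb in the same order, so first exons were highest in both. lincRNA genes with an exon peak had more exon sequence (median 2324.5 bp against 984 bp) and a higher exon GC content (51.3% against 46.4%) than those without. In the highest of 5 classes of exon GC content 21.4% of lincRNA genes had an exon peak (55 of 257) against 54.8% of coding genes.

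Pooled over genes and without matching of length, lincRNA introns held more peaks per Mb than coding introns, 25.8 against 21.3. Both lay below the autosomal density, at 0.855 and 0.708 times. The share of genes with an intron peak was lower in lincRNA genes in all but the longest of the length groups above. The intron peaks of lincRNA genes also had higher scores, with a median of 76.4 against 70.5. Of them 52.1% lay above the median of all autosomal peaks, against 45.7%. Start and exon peaks of lincRNA genes had lower medians, 68.5 and 65.1, close to those of coding genes (70.0 and 67.5). Along lincRNA genes of at least 5 kb the density changed little. The first of 5 equal parts of the gene body had 0.862 times the autosomal density and the last 0.723, with 0.832 upstream and 0.805 downstream. Coding genes went from 1.24 in the first part to 0.774 in the next.

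**Figure D5:**
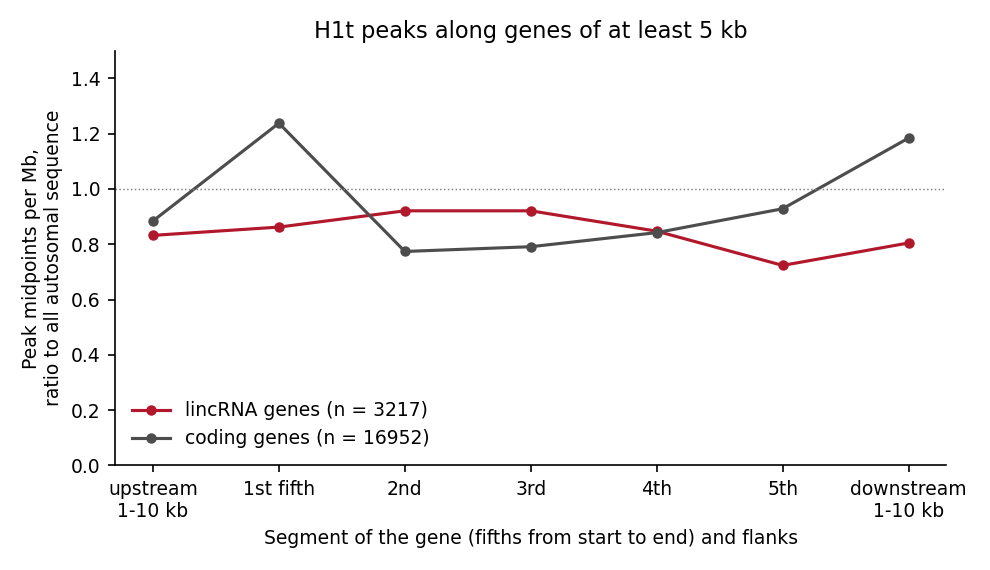
Peak midpoints per Mb in the 5 equal parts of the gene body and in the flanks from 1 to 10 kb, as a ratio to all autosomal sequence, for genes of at least 5 kb. lincRNA genes stay between 0.723 and 0.921 throughout, while coding genes reach 1.24 in the first part.

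Intron peaks were spread unevenly over lincRNA genes. Of 2822 pairs of a gene and an intron peak, 49.5% fell in the 165 genes with 5 or more, and 481 genes had 1. The share rose with gene length: an intron peak was found in 1.25% of the shortest and 61.9% of the longest 1042 genes, and the coding shares at these lengths were 1.66% and 57.8%. Among genes of at least 50 kb, 146 of 590 lincRNA genes (24.7%) had no intron peak, against 27.0% of coding genes. The most intron peaks were in Gm20752 on chromosome 3 (chr3:159076364-159308081, 25 peaks over 231718 bp), Gm49171 on chromosome 14 (22 over 472146 bp) and Gm28905 on chromosome 10 (21 over 231355 bp). None of these 3 had a peak at the start or in an exon. At the other end, Gm49317 on chromosome 9 (180629 bp), Gm14064 on chromosome 2 (165810 bp) and Gm30382 on chromosome 3 (160884 bp) were the longest lincRNA genes without a peak in the gene or within 10 kb.

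The highest start score belonged to Gm42418, an unspliced gene at chr17:39846958-39848788. Its peak of 6181 bp, at chr17:39842920-39849100, had the maximum score of 3100 and covered 100% of the gene; the midpoint lay 948 bp upstream of the start, so no exon peak was counted. RefSeq places Rn18s-rs5, a pseudogene named for 18S ribosomal RNA, and the transcript AY036118 under this peak. How many copies of this sequence the genome holds was not determined, and the part of repeated sequence in the score was not tested.

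The next scores were far lower, from 360.25 to 217.77 for the following 9 genes. In 6 of these 9 the nearest coding start was less than 1 kb away and on the opposite strand. A coding start this near, on either strand, lay beside 117 of all 338 lincRNA genes with a start peak. Among all 5209 lincRNA genes, 339 had one. Of the 6, Gm16499, Gm4675, Gm26867, Gm2061 and Gm12116 also overlap a coding gene. Gm16499 (score 360.25) starts 856 bp from Tril, which encodes an accessory protein of Toll-like receptor signalling. Gm4675 (298.32) starts 798 bp from Sox21 and Gm12116 (232.89) 466 bp from Tlx3, both genes of neural transcription factors. Snhg18 (242.91), a host gene of small nucleolar RNA, starts 148 bp from Sema5a, which encodes a semaphorin that guides axons. Gm2061 (238.83) starts 720 bp from Slc30a10, a manganese exporter gene, and Gm26867 (258.33) 559 bp from Gm13285. The other three had their nearest coding start at 35408 bp (Gm47381, score 275.4), 315222 bp (Gm35240, 238.59) and 37146 bp (Gm26837, 217.77).

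Gm49794 on chromosome 17 (chr17:27354111-27367492) had the most exon peaks, 4, with scores from 51.65 to 108.94 over 13039 bp of exon. AC160336.1 on chromosome 14, which overlaps a coding gene, is unspliced, so all its 93147 bp count as exon. It had 3 exon peaks, which covered 2.17% of that sequence. Another 9 genes had 2, among them Gm10710 on chromosome 3, which overlaps a coding gene, with 52.7% of its exon sequence under peaks, and Miat, a nuclear transcript of neural tissue. The largest covered shares of genes of at least 5 kb were those of Gm48680 on chromosome 10 (60.9% of 7159 bp) and Gm40797 on the same chromosome (39.9% of 10455 bp). In both, the peaks counted inside the gene had their midpoints in introns, 3 and 5 of them. Peaks also covered 80.9% of the exon sequence of Gm48680, and 1 of its 3 counted at the start as well. In Gm40797 they covered 0% of the exon sequence.

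Well-known lincRNA genes were looked up from lists, counting those with the gene type lincRNA on chromosomes 1 to 19. Of 13 host genes of small RNAs, 4 had a start peak (30.8%), beside 6.49% of all lincRNA genes and 22.2% of coding genes of their lengths. Besides Snhg18 these were Snhg6 (score 76.43), Mir124a-1hg (52.63) and Mir17hg (57.25), the host of the miR-17 cluster. Mir124-2hg, named for the same microRNA as Mir124a-1hg, had no peak at the start, in exons or in introns. Mir9-3hg had none at the start or in exons and 1 in an intron. Mir142hg and Mir155hg had no peak within 10 kb. The list holds few genes, and their median first-exon GC content was 56.8%, above the 49.4% of all lincRNA genes.

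Among 11 nuclear and other well-studied lincRNA genes, 4 had a start peak (36.4%), beside 6.49% of all lincRNA genes and 26.0% of coding genes of their lengths. Their median first-exon GC content was 59.7% against 49.4%. Malat1, an abundant nuclear RNA (chr19:5795690-5802672), had a peak of score 63.31 centred 653 bp upstream and none over its 6983 bp. Neat1, the scaffold RNA of paraspeckles on the same chromosome, had none at the start or in its 20771 bp. 2900097C17Rik, known as Norad, which binds Pumilio proteins, had a start peak of 90.12 inside its single exon, and Epb41l4aos had one of 69.48. Miat had a start peak of 56.26 and a second exon peak of 75.68. Pvt1, the neighbour of Myc, had 5 intron peaks over 340111 bp and none at the start or in exons. Lncpint, a p53-regulated transcript, had 1 exon and 3 intron peaks, while Trp53cor1, Rmst and Lncenc1 had none within 10 kb.

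The 3 imprinted and 4 developmental genes listed had no start peak, which with so few genes is no departure from the 6.49% of all lincRNA genes. H19, expressed from the maternal copy, had no peak within 10 kb. Meg3, maternal too, had 1 exon peak of score 77.69 centred 5238 bp downstream of its start and 1 intron peak, and Mirg in the same domain had 1 intron peak. Of the 4 developmental genes, Hotair, Hottip and Halr1 in or beside the Hox clusters had none at the start, in exons or in introns, and Pantr1, beside Pou3f3, had 2 intron peaks. Of 20 pluripotency-associated (Platr) transcripts 1 had a start peak (5.0%, near the 6.49% of all lincRNA genes). This was Platr23, with a score of 76.91, which starts 251 bp from Zfp281, on the opposite strand. An exon peak lay in 0 of the 20, beside 3.57% of all lincRNA genes, a share at which under 1 gene would have one. No peak lay within 10 kb of 14 of them, beside 52.1% of all lincRNA genes.

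Names give another grouping. RIKEN clones whose number prefix is that of adult testis cDNA libraries had a start peak in 35 of 586 genes (5.97%) and an exon peak in 7 (1.19%). Other RIKEN clones had them in 42 of 479 (8.77%) and 37 (7.72%). Predicted genes named Gm had them in 223 of 3608 (6.18%) and 114 (3.16%), and genes known by a clone accession in 19 of 384 (4.95%) and 8 (2.08%). The 152 genes with other symbols had the highest shares, 12.5% (19) at starts and 13.2% (20) in exons. All lincRNA genes together had a start peak in 6.49% and an exon peak in 3.57%. All these start shares were below the length-weighted coding shares, which ran from 21.7% to 22.6%. The exon shares of the name groups were also below the coding ones, which ran from 25.5% to 26.9%. Intron shares ran from 18.2% to 24.0%, against coding shares of 19.2% to 24.0%. The intron ratio to coding genes was 1.14 for clone accessions and 0.861 to 0.966 for the other name groups. A clone name gives the tissue in which the cDNA was first found, and says nothing of expression in these cells.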

How the data were processed

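A deposited peak list was analysed for 1 of 2 libraries; the input was not analysed here. The submitters' processing notes name Bowtie 1.1.2 and the mm10 assembly. Peak names have the form MACS writes. The caller's version and threshold, and whether it used the input, are unstated in the sources. The values are a deposited score for each peak, made by the authors' caller, with no stated scale. Gene models were from GENCODE M21, whose assembly, GRCm38, is mm10.

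Peak midpoints were assigned to windows of 1 kb on each side of the gene start, to the union of annotated exons, and to introns. Coding shares were weighted to lincRNA lengths in 20 classes. GC content came from GENCODE transcript sequences and promoters from RefSeq (GRCm38.p6). Autosomal density leaves out the first 3 Mb of each chromosome and takes the last annotated or peak base as its end. Counting and weighting were tested on simulated data. With 1 library no p-value is given, and Wilson intervals cover counting over genes only; neighbouring genes are not independent. Genes were named as the 10 highest by start score, exon peaks, covered share (from 5 kb) and intron peaks, the 10 longest without a peak within 10 kb, and members of the gene lists; a selection is printed. The testis gene list (Tslrn1, Tesra) had 0 members of this gene type. Members and lists were chosen with earlier results of these data known. The breakdowns by gene segment, side of the start and CG count were chosen after the data were seen. Alternatives covered scores, overlap rules, windows, gene models and matching. The work used Python 3.11.15, numpy 2.4.6 and pandas 2.3.3.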

Additional observations from a re-analysis of the deposited data

How the results depend on the processing

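Over 40 alternative values, 35 stayed below 1. All 15 start ratios (0.185 to 0.562) and all 12 exon ratios (0.0986 to 0.356) did, while 5 of 13 intron ratios lay above 1 (range 0.657 to 1.22). Start ratios that left the counting interval were 0.394 with matching on exonic length, 0.350 on gene length and exon GC, 0.562 on gene length and first-exon GC, 0.332 with overlaps of 1 bp, 0.255 with the start of any transcript, 0.377 and 0.243 with windows of 2 kb and 500 bp, and 0.185 without genes near coding genes. Exon ratios were 0.119 with manual transcripts, 0.233 matched on exonic length, 0.356 on exonic length and exon GC, 0.198 on gene length and exon GC, 0.209 with overlaps of 1 bp, 0.117 above the median score and 0.0986 without genes near coding genes. Intron ratios were 0.876 with basic transcripts, 0.850 matched on intronic length and 0.657 with overlaps of 1 bp. They turned above 1 with at least 50% of the peak inside (1.05), matching on exonic length (1.22) or on gene length and exon GC (1.01), peaks above the median score (1.17) and start peaks left out (1.05); the cause was not tested. Matching on first-exon GC, on exonic length with GC and on intronic length, and removal of maximum scores, were added after the data were seen. GC was matched in 5 classes with edges set by the lincRNA genes, so GC content can still differ within a class. How far weak peaks stand above background is not known, since neither the input nor the read depth was analysed here.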

Other observations

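The lincRNA genes of the sex chromosomes stood outside the comparisons. On X, which held 3513 peaks, 2 of 96 lincRNA genes had a start peak (2.08%), 1 an exon peak and 12 an intron peak (12.5%). The autosomal lincRNA shares were 6.49%, 3.57% and 19.1%. Coding genes of X and Y were not compared, so these counts cannot be told apart from a difference between whole chromosomes. On Y, which held 483 peaks, 0 of 549 had a peak at the start, in an exon or in an intron. A count of 0 among 549 genes allows a share of up to 0.546% at each of these places (3 counts, counting error only). This limit treats the genes as independent, and it is too low where genes resemble one another in sequence, which was not examined. Any gene without an intron stayed in the 549. How the aligner placed reads with more than 1 match is not stated in the sources, and its part in these counts was not tested.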
